A study of Mus musculus with 6 samples.

Results

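Immediate early genes are transcribed within minutes of a stimulus by factors already present in the cell, and most of their RNAs are short-lived. The 10 described here are Fos, Fosb, Jun, Junb, Egr1, Atf3, Ier2, Myc, Nr4a1 and Nr4a3. They were taken by symbol from the 54393 genes of the deposited table through the GENCODE M21 annotation, and all 10 were found. The RNA came from the tibialis anterior, a hind limb muscle, of adult mice of 2 genotypes: n = 3 WT samples, whose titles begin with C57 and carry the numbers 1, 3 and 4, and n = 3 Dock3 KO samples, numbered 1, 2 and 3. Dock3 encodes an activator of the small GTPase Rac. How the KO allele was made, and the strain and sex of the mice, are not given in the sources used here. The labels do not say that each sample came from a separate animal, so the p-values measure the spread between these samples, which may be technical.

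In muscle, contraction, calcium and stress act through the kinases ERK, JNK and p38 and through cAMP on the factors CREB and SRF, which switch these genes on. FOS and JUN proteins pair through leucine zippers into the factor AP-1, and ATF3 is a stress-induced leucine zipper protein that can pair with JUN. EGR1 is a zinc finger factor, MYC acts with MAX, IER2 is a small nuclear protein, and NR4A1 and NR4A3 are orphan nuclear receptors induced by exercise.

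One of the 10 genes, Nr4a3, rose in Dock3 KO muscle past the test, to 6.21 times the WT mean. To show the sequence that CREB-family factors are known to bind, the stretches before Nr4a3, Nr4a1 and Fos are printed below, with TGACG, the core of the cAMP response element, and its reverse complement CGTCA in capitals. They are RefSeq sequences on GRCm38.p6, 5′ to 3′ on the plus strand, which is the strand of these genes.
Nr4a3, chr4:48045055-48045152, the 98 bases before its first annotated exon: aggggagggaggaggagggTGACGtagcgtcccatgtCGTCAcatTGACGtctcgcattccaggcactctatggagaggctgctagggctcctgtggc
Nr4a1, chr15:101266596-101266845, the 250 bases before its RefSeq start, inside the gene and outside its annotated exons: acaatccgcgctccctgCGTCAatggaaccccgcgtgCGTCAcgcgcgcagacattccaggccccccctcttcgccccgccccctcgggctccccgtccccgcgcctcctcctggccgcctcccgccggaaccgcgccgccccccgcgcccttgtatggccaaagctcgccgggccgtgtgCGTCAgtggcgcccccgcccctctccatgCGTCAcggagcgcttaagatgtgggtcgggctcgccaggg
Fos, chr12:85473640-85473889, the 250 bases before its start: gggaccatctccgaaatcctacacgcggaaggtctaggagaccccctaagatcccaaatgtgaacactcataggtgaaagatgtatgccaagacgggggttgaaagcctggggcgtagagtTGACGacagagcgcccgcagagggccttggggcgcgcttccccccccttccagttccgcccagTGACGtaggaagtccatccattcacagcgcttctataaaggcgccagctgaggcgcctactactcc

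Windows of 250 bases before the RefSeq start were found for 7 of the 10 genes, all but Egr1, Ier2 and Myc. Like that of Nr4a1, the Atf3 window (chr1:191183334-191183583) lies inside the annotated gene. The windows of Atf3, Fosb and Nr4a3 overlap annotated exons of their own gene. Searched on both strands, TGACG occurred 4 times each in the windows of Nr4a3 and Nr4a1, 2 times in that of Fos and 1 time each in those of Fosb, Junb and Atf3, and was not found in that of Jun. The printed stretch of Nr4a3 holds 3 of its 4 copies. Of 32851 RefSeq windows of this length, 17.8% held at least 1 copy and 0.137% at least 4. The full palindrome TGACGTCA, which contains this core, was found in none of the 7 windows and in 1.55% of all windows. The AP-1 motif TGANTCA was found in none of the 7 and in 6.75% of all, and the CArG box in none and in 1.47%, both searched on both strands. These matches describe letters in short windows, and sequence farther upstream was not searched.

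Values per sample are normalized counts and are given in the order WT 1, 3, 4 and Dock3 KO 1, 2, 3. Dock3 itself read 169, 161 and 118 in WT against 22.4, 1.78 and 1.54 in Dock3 KO, so that Dock3 KO 1 kept 0.150 of the WT mean. The abundant transcripts Gm42418 and Lars2 made up 17.9% and 20.3% of the summed values of Dock3 KO 1 and 2, and 3.00% to 3.64% of those of the other 4 samples. The sums over all genes ranged from 23520223 to 33393950. All 10 muscle fibre markers, such as Ckm, Acta1 and Myh4, were present. In bulk muscle, fewer cells of a type and less RNA per cell cannot be told apart.

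Among the nuclear receptors, Nr4a3 (chromosome 4, 48045153 to 48086447, plus strand) read 132, 71.6 and 76.1 in WT against 575, 602 and 562 in Dock3 KO. The Dock3 KO samples sat close together, the lowest of them at 4.24 times the highest WT sample. The means were 93.4 ± 33.9 for WT and 580 ± 20.3 for Dock3 KO (SD, n = 3 each). On the log2(normalized count + 1) scale, used for every difference below, Dock3 KO exceeded WT by 2.68 ± 0.237 (standard error), and limma gave an adjusted p of 0.000413 over 16031 genes. Because 3 against 3 samples allow no exact permutation p under 0.1 (two-sided), that test gave p = 0.1 here. With any 1 sample left out, the difference lay between 2.52 and 2.96 and still passed. Leaving out Dock3 KO 1 and 2 together, the samples rich in Gm42418, kept 1 Dock3 KO sample. The difference was then 2.63, and the call was lost.

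Nr4a1 (chromosome 15, 101254269 to 101274795, plus strand) read 1798, 1659 and 1755 in WT against 3062, 4087 and 2159 in Dock3 KO. Every Dock3 KO sample lay above every WT sample, Dock3 KO 3 by the least, at 1.20 times the highest WT value. The difference of 0.79 ± 0.203 did not pass (limma adjusted p = 0.148). Without Dock3 KO 3 it was 1.03 and passed (limma adjusted p = 0.0211). With the level of Gm42418 as a covariate it was 0.24 (limma adjusted p = 0.898), and without Dock3 KO 1 and 2 it was 0.31. Gm42418 was far higher in Dock3 KO 1 and 2 than in the other samples. Both checks, here and below, therefore rest mainly on Dock3 KO 3 against WT and are not independent.

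The third receptor of the family, Nr4a2, comes from the list of other immediate early genes. It read 17.3, 13.9 and 9.60 in WT against 258, 165 and 43.7 in Dock3 KO, with no overlap. The difference of 3.12 ± 0.579 passed (limma adjusted p = 0.0370). That call was lost without Dock3 KO 1, Dock3 KO 2 or any 1 of the WT samples, with differences of 2.59 to 3.30 (limma adjusted p from 0.0703 to 0.179). With the level of Gm42418 as a covariate the difference was 1.47 (limma adjusted p = 0.586).

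**Figure D1:**
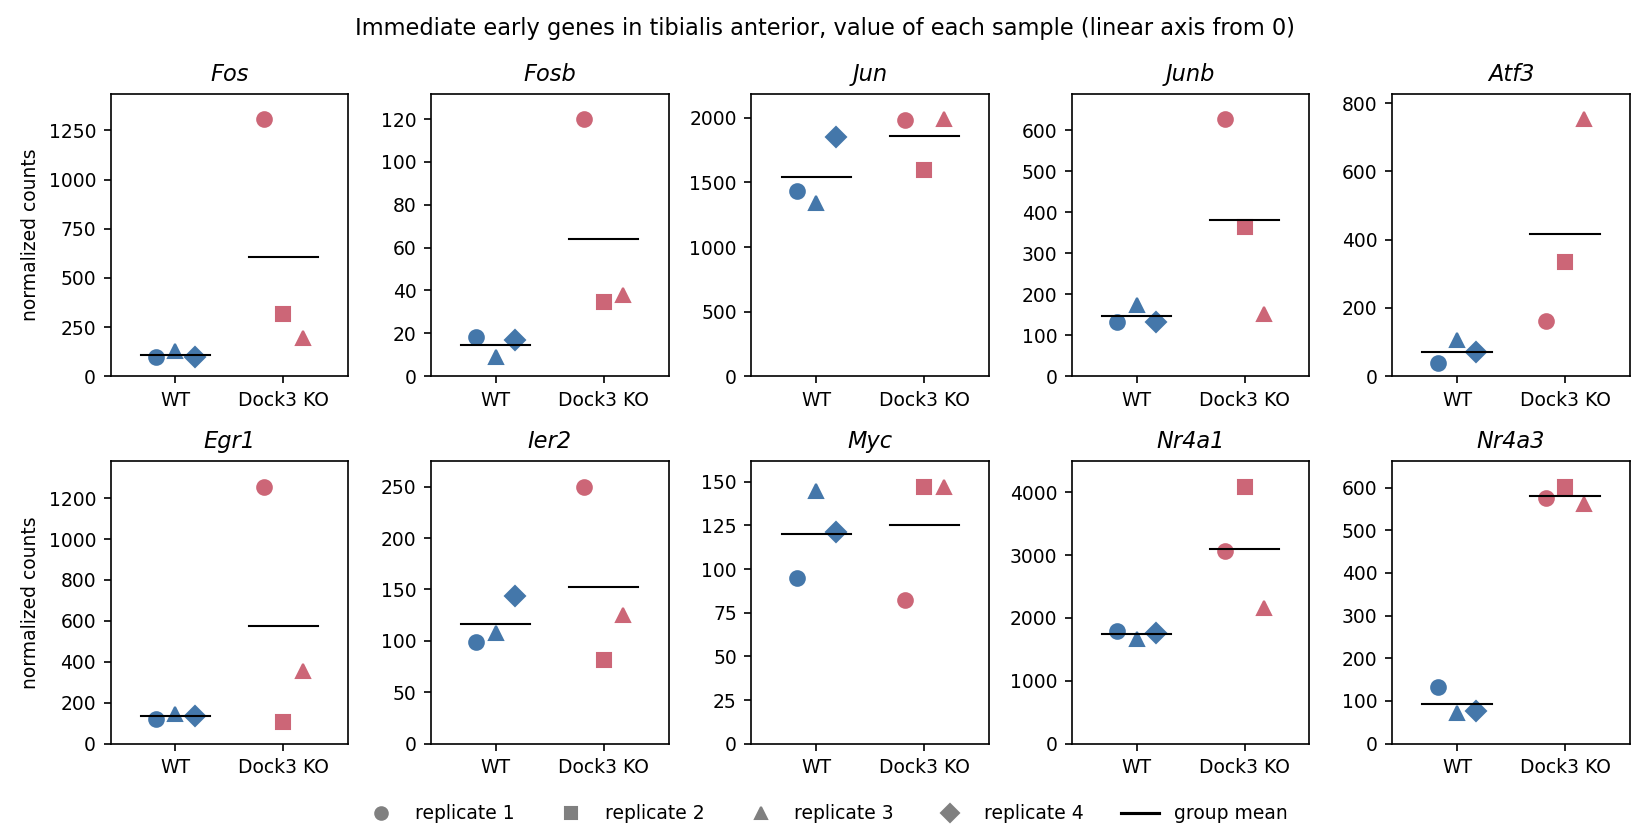
Normalized counts (linear axes from 0) of the 10 immediate early genes in each WT (blue) and Dock3 KO (red) sample, with marker shapes for replicate numbers and a line at the group mean. The Nr4a3 values of Dock3 KO lie between 562 and 602, while those of Fos run from 196 to 1307, with Dock3 KO 1 the highest.

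Of the genes for AP-1 proteins, Fos (chromosome 12, 85473890 to 85477273, plus strand) read 96.2, 129 and 96.1 in WT against 1307, 318 and 196 in Dock3 KO. No Dock3 KO sample fell into the WT range. Dock3 KO 1 stood at 12.2 times the WT mean, Dock3 KO 2 at 2.98 times and Dock3 KO 3 at 1.84 times. The difference of 2.03 ± 0.552 did not pass (limma adjusted p = 0.177), and it was 1.23 without Dock3 KO 1. With Gm42418 as a covariate it was 0.81 (limma adjusted p = 0.898).

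Fosb (chromosome 7, 19302696 to 19310051, minus strand), a close relative of Fos, read 18.3, 9.02 and 16.8 in WT against 120, 34.4 and 37.9 in Dock3 KO. Its groups did not overlap, and Dock3 KO 1 was again the highest, at 8.15 times the WT mean. The difference was 1.86 ± 0.527 (limma adjusted p = 0.195), and 1.30 without Dock3 KO 1.

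Junb (chromosome 8, 84974484 to 84978718, minus strand), a partner of FOS proteins, read 132, 175 and 132 in WT against 628, 365 and 153 in Dock3 KO. The groups overlapped, since Dock3 KO 3 lay inside the WT range. The difference was 1.17 ± 0.417 (limma adjusted p = 0.327), and without Dock3 KO 3 it was 1.72 and passed (limma adjusted p = 0.0237). With Gm42418 as a covariate it was -0.018. Junb overlaps the peroxiredoxin gene Prdx2 on the other strand, which read 1797, 1894 and 1887 in WT against 1638, 1295 and 1371 in Dock3 KO (-0.38, limma adjusted p = 0.304). Whether strand was used in counting is not stated, so their reads may not be fully told apart.

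Jun (chromosome 4, 95049034 to 95052222, minus strand), the main partner of FOS, read 1437, 1342 and 1850 in WT against 1986, 1596 and 1990 in Dock3 KO. The groups overlapped, and the difference of 0.27 had a 95% interval of -0.08 to 0.63 (limma adjusted p = 0.618). The antisense gene Junos, which overlaps it, read 39.0, 51.0 and 45.5 against 88.7, 60.8 and 66.1 (0.65, limma adjusted p = 0.449).

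Atf3 (chromosome 1, 191170296 to 191218039, minus strand) read 39.0, 106 and 71.9 in WT against 162, 336 and 753 in Dock3 KO. Its groups did not overlap. The order of the Dock3 KO samples was the reverse of that for Fos, with Dock3 KO 3 the highest at 10.4 times the WT mean and Dock3 KO 1 the lowest at 2.25 times. The difference of 2.35 ± 0.514 missed the threshold (limma adjusted p = 0.0800). It passed without Dock3 KO 1 (2.89, limma adjusted p = 0.0223) and with Gm42418 as a covariate (3.66, limma adjusted p = 0.0409). Without Dock3 KO 3 it was 1.79 (limma adjusted p = 0.186). Gm24748, on the other strand of Atf3, was listed at 0 in all 6 samples.

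The zinc finger gene Egr1 (chromosome 18, 34859823 to 34864984, plus strand) read 119, 147 and 135 in WT against 1256, 107 and 355 in Dock3 KO. Dock3 KO 1 was 9.39 times and Dock3 KO 3 was 2.66 times the WT mean, while Dock3 KO 2 lay below every WT sample. The highest Dock3 KO value was 11.7 times the lowest, the widest such range of the 10 genes, and in WT it was 1.23 times. The difference of 1.44 had a 95% interval of -0.05 to 2.94 (limma adjusted p = 0.498), and it was 0.55 without Dock3 KO 1 and 2.32 without Dock3 KO 2.

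Ier2 (chromosome 8, 84661331 to 84662852, minus strand) read 99.4, 107 and 143 in WT against 249.99, 81.9 and 125 in Dock3 KO. As for Egr1, Dock3 KO 1 was the highest and Dock3 KO 2 the lowest of all 6 samples. The difference of 0.25 had a 95% interval of -0.57 to 1.06 (limma adjusted p = 0.888), and it was -0.19 without Dock3 KO 1.

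Myc (chromosome 15, 61985391 to 61990374, plus strand), which promotes growth and ribosome synthesis, read 94.7, 144 and 121 in WT against 82.3, 147 and 147 in Dock3 KO. Here Dock3 KO 1 was the lowest sample. The difference of 0.03 had a 95% interval of -0.59 to 0.66 (limma adjusted p = 0.986), and its sign changed with the scaling and with the sample left out.

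**Figure D2:**
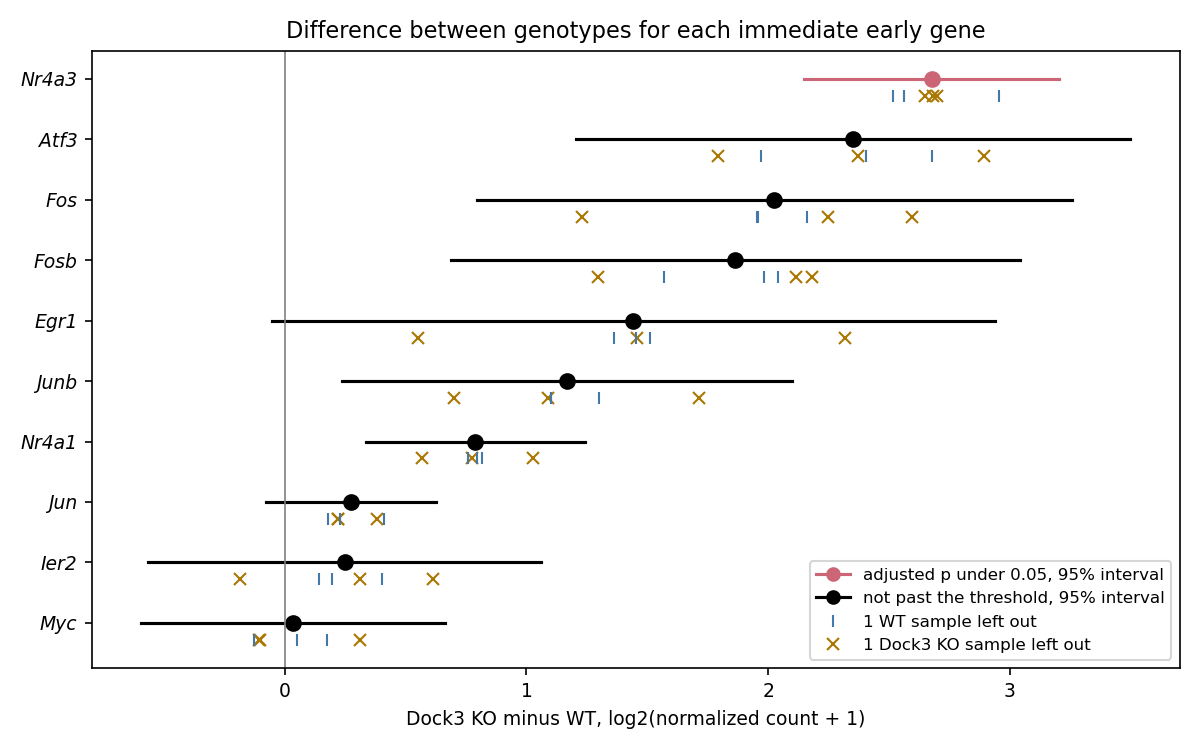
Difference between Dock3 KO and WT on the log2(normalized count + 1) scale for each gene (dot) with its 95% interval from limma (line), and the same difference with 1 WT sample (blue ticks) or 1 Dock3 KO sample (crosses) left out. Only Nr4a3 passed an adjusted p of 0.05, and leaving out 1 sample moved it between 2.52 and 2.96, while Egr1 moved between 0.55 and 2.32.

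Counted over the set, 1 of the 10 genes passed the test, upwards, and none passed downwards. Of 16031 genes tested, 1.03% passed in either direction, 0.443% upwards and 0.586% downwards. An unadjusted p under 0.05 was reached by 6 of the 10, all higher in Dock3 KO, and by 10.5% of all genes in either direction and 4.82% upwards. In 5 (Nr4a3, Nr4a1, Fos, Fosb and Atf3) every Dock3 KO sample lay above every WT sample. The groups did not overlap in 16.2% of all genes, 7.6% with Dock3 KO higher and 8.65% with it lower. A log2 difference of 1 or more was found for 6 of the 10 and 2.47% of all genes. All 10 differences were above 0, as were 49% of all genes, although Jun, Ier2 and Myc fell below 0 when samples were rescaled to the same total. The median difference was 1.31, and -0.01 over all genes tested. Without Dock3 KO 1 the median of the 10 was 0.74. It was 0.63 without Dock3 KO 1 and 2, which left 1 Dock3 KO sample, and 0.61 with Gm42418 as a covariate. All 10 genes passed the filter on low values, a mean of at least 10.

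Within Dock3 KO, these genes varied more between samples than within WT. The median SD of the log2 values was 0.90 in Dock3 KO and 0.26 in WT, while over all genes tested it was 0.26 and 0.24. The Dock3 KO spread was the larger one for 8 of the 10 genes, all but Jun and Nr4a3, and for 53.6% of all genes. Nr4a3 had the smallest Dock3 KO spread of the 10, at 0.05, and Egr1 the largest, at 1.77.

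Dock3 KO 1 was the highest Dock3 KO sample for 5 genes (Fos, Fosb, Junb, Egr1 and Ier2). It was Dock3 KO 2 for Nr4a1 and Nr4a3, and Dock3 KO 3 for Atf3, Jun and Myc, the last 2 by under 5 normalized counts. Of all genes tested, it was Dock3 KO 1 for 36.1%, Dock3 KO 2 for 32.2% and Dock3 KO 3 for 31.6%. Among the Dock3 KO samples, all 6 red cell markers (globin genes, Alas2 and Slc4a1) were also highest in Dock3 KO 1. So were all 8 macrophage, 7 of 10 muscle fibre and 5 of 7 endothelial markers. The red cell markers summed to 97745 in Dock3 KO 1, to 46298 in Dock3 KO 2 and to 36989 in Dock3 KO 3. Their WT sums lay between 28568 and 54966. Their part in the high Fos and Egr1 values of Dock3 KO 1 was not tested. Neutrophil markers were near 0: Ly6g and Elane were listed at 0 in all 6 samples, and the 8 markers summed to at most 51.7. The 8 macrophage markers summed to 5784 to 6406 in WT and 4623 to 5715 in Dock3 KO. None of these 8 passed the limma test, and 1 had an unadjusted p under 0.05, as did 10.5% of all genes tested.

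Of 6 fibroblast markers, 2 rose, the collagen genes Col1a1 and Col3a1, which code for the main fibrillar collagens of connective tissue. Col1a1 read 3688, 3799 and 1954 in WT against 7278, 7411 and 8958 in Dock3 KO (1.38 ± 0.235, limma adjusted p = 0.0228). Col3a1 read 3951, 3952 and 2988 against 6993, 6541 and 6259 (0.87 ± 0.142, limma adjusted p = 0.0168). All Dock3 KO samples lay above all WT samples for both, as they did for Nr4a3. The Col1a1 call was lost without any 1 of the Dock3 KO samples and the Col3a1 call without Dock3 KO 1, Dock3 KO 2 or WT 4, and both were lost with Gm42418 as a covariate. The other fibroblast markers did not pass, with Pdgfra at 0.15, Dcn at -0.28, Dpt at 0.26 and Pi16 at -0.47, and the 6 summed to 28653 to 30275 in WT and 31805 to 37996 in Dock3 KO. None of 6 adipocyte markers passed the limma test and 1, Lep, had an unadjusted p under 0.05, as did 10.5% of all genes tested. On the log2 scale their median lay 1.30 above the WT mean in Dock3 KO 1 and 0.51 above it in Dock3 KO 2. It lay 0.086 below the WT mean in Dock3 KO 3, so this order was the same as for Fos. The order of their sums was another one, with 3308 in Dock3 KO 1, 4291 in Dock3 KO 2 and 3366 in Dock3 KO 3. In WT the adipocyte markers summed to 2947 to 3252. The part of these cell types in the differences of the immediate early genes was not tested.

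**Figure D3:**
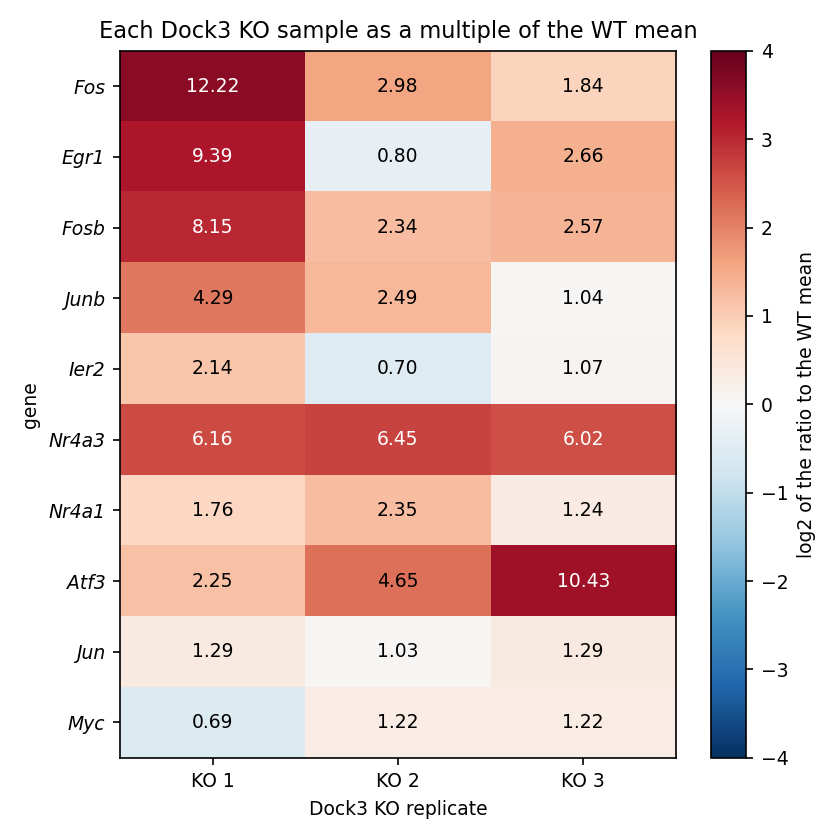
Value of each immediate early gene (rows) in each Dock3 KO sample (columns) as a multiple of the WT mean, printed in the cells and coloured on a log2 scale. Dock3 KO 1 holds the high multiples of Fos (12.2) and Egr1 (9.39), Dock3 KO 3 that of Atf3 (10.4), and Nr4a3 lies between 6.02 and 6.45 in all 3.

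Levels can be roughly compared between genes per kilobase of annotated exon, taken over all annotated transcripts of a gene. The transcripts present may be shorter, so the order depends in part on the annotation. In WT the means were highest for Nr4a1 (495 normalized counts per kilobase) and Jun (484), followed by Ier2 (76.6), Junb (63.6), Fos (45.5), Myc (44.2), Atf3 (33.5), Egr1 (29.8), Nr4a3 (15.6) and Fosb (2.36). Of the 9 steps in this order, 4 separated all WT samples of the neighbours: Jun from Ier2, Junb from Fos, Egr1 from Nr4a3 and Nr4a3 from Fosb. In Dock3 KO the order of means was Nr4a1 (884), Jun (582), Fos (258), Atf3 (194), Junb (166), Egr1 (128), Ier2 (100.06), Nr4a3 (96.9), Myc (46.2) and Fosb (10.3). There, 2 steps separated all samples, Nr4a3 from Myc and Myc from Fosb.

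The 10 genes are mostly compact, and their RNAs were searched for ATTTA, the core of AU-rich elements known to speed RNA decay, after the stop codon. A genomic span under 10 kb was found for 7 of them and for 23.0% of 13332 protein-coding genes tested. The longer ones were Atf3, Nr4a1 and Nr4a3. The pentamer was densest in Nr4a1, at 5.52 per kilobase, followed by Fos at 4.91, Myc at 4.29 and Junb at 4.12. Nr4a3 had 1.62 per kilobase and Fosb 0.434, and in Ier2 the pentamer was not found. The median was 2.89 per kilobase, and 1.34 over the protein-coding genes tested. No near-identical copy of any of the 10 was found among the annotated transcripts.

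Other immediate early and activity-induced genes came from a list of 46, of which 43 were tested. Of these, 3 rose and none fell, where 0.443% of all genes tested rose and 0.586% fell. Differences were above 0 for 35 of them and for 49% of all genes, and below 0 for 8, and the median of the list was 0.40. That median was 0.21 without WT 1 and 0.12 on rescaling to the same total, where the median of all genes was -0.28. In 13 of them, and in 7.6% of all genes tested, every Dock3 KO sample lay above every WT sample. Beside Nr4a2, the genes that rose were Sik1, a cAMP-induced kinase that restrains CREB coactivators, and Btg2, an antiproliferative gene. Sik1 read 362, 405 and 440 in WT against 798, 1139 and 719 in Dock3 KO, without overlap (1.11 ± 0.186, limma adjusted p = 0.0205). Btg2 read 206, 288 and 286 against 1209, 574 and 541, also without overlap (1.49 ± 0.290, limma adjusted p = 0.0465). The limma count of 3 fell to 0 without Dock3 KO 2, WT 3 or WT 4, where 14, 11 and 19 genes had an unadjusted p under 0.05. Without WT 1 it was 1, Ccn2, which encodes a matrix protein. With Gm42418 as a covariate it was 0, with 9 at an unadjusted p under 0.05.

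Among 20 genes of the upstream kinases and factors, none passed the limma test, 3 had an unadjusted p under 0.05, and the median difference was 0.08. Of all genes tested, 10.5% had an unadjusted limma p under 0.05 in either direction. Crem, the cAMP-responsive modulator, stood at 1.02 (limma adjusted p = 0.104), and without Dock3 KO 1 at 1.23, where it passed (limma adjusted p = 0.0480). Creb1, the gene for CREB, stood at 0.35. Mapk3, which encodes the kinase ERK1, stood at -0.78 (limma adjusted p = 0.145), and without WT 1 at -0.99, where it passed (limma adjusted p = 0.0423). The SRF coactivator Mrtfa stood at -0.24. Of 14 dimer partners and related factors tested, none passed the limma test, 1 had an unadjusted p under 0.05, and the median was 0.07. Jdp2, a repressor of AP-1, stood at 0.49, the MYC partner Max at -0.22 and the retinoid receptor Rxra at -0.12.

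For 12 heat shock genes, none passed the limma test, and the median was 0.22. An unadjusted limma p under 0.05 was reached by 3 of them and by 10.5% of all genes tested. Hspa1b, an inducible HSP70 gene, read 102, 97.2 and 87.2 in WT against 77.4, 403 and 386 in Dock3 KO. Dock3 KO 1, the highest sample for Fos, was thus the lowest for Hspa1b. Its difference was 1.26 (limma adjusted p = 0.437), and without Dock3 KO 1 it was 2.04 and passed (limma adjusted p = 0.00175). Dnajb1 stood at 0.89, Hspb8 at -0.34 and Bag3 at -0.0035. Of 10 glucocorticoid-responsive genes 1 rose, Pdk4, a kinase that limits glucose oxidation (2.23, limma adjusted p = 0.0301). Among the Dock3 KO samples, Dock3 KO 2 was the highest for 8 of the 10, and for 32.2% of all genes tested. The Pdk4 call was lost without Dock3 KO 3, WT 3 or WT 4 (limma adjusted p from 0.0651 to 0.126). It was also lost with Gm42418 as a covariate (limma adjusted p = 0.526) and with either other prior variance (0.210 and 0.212). Without Dock3 KO 1 and 2, which left 1 Dock3 KO sample, the Pdk4 difference was 1.93.

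**Figure D4:**
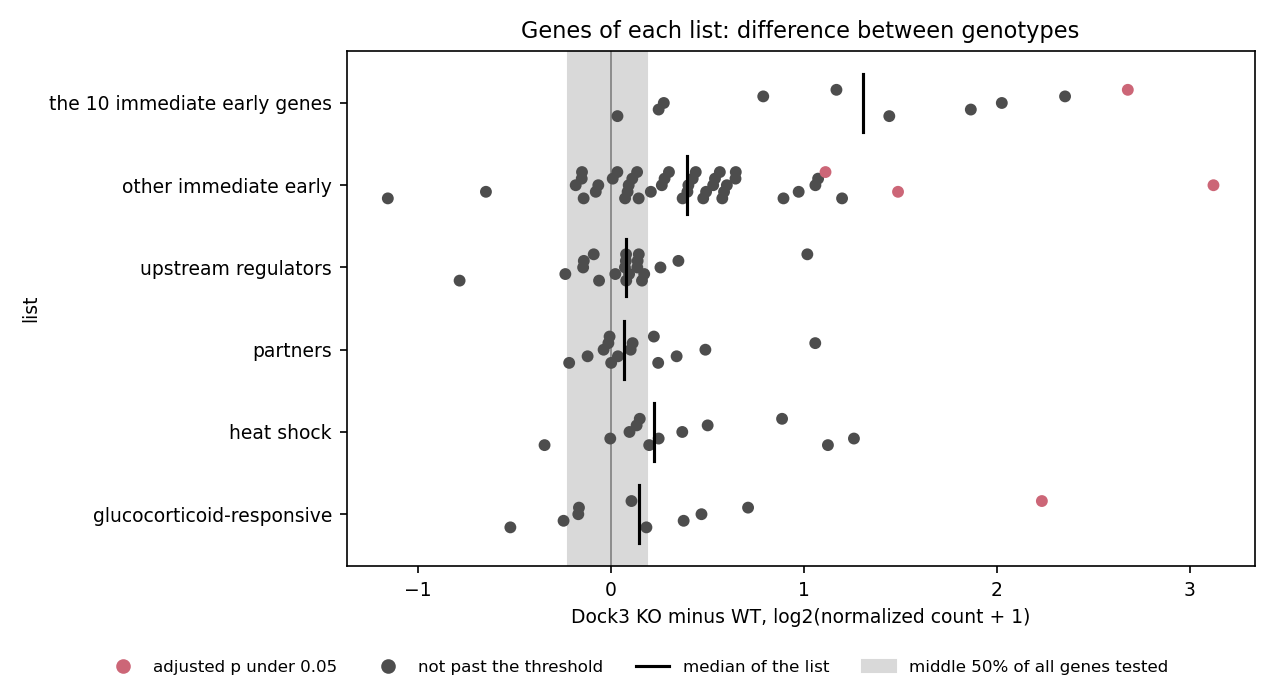
Difference between Dock3 KO and WT for the tested genes of each list (points, red where the adjusted p was under 0.05), with the median of the list (black line) and the middle 50% of all genes tested (grey band, -0.22 to 0.18). The medians are 1.31 for the 10 immediate early genes and 0.40 for the other immediate early genes, and those of the upstream regulators (0.08) and partners (0.07) lie inside the band. Without Dock3 KO 1 the first median is 0.74, and without WT 1 the second is 0.21.

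The profiles closest to Fos, by the root mean square difference of centred log2 values over the 6 samples, included those of Olfr904 (0.42), Apold1 (0.48), Xlr3a (0.54) and Btg2 (0.55). Apold1, an early response gene of blood vessels, read 16.8, 37.6 and 49.4 in WT against 392, 124 and 85.2 in Dock3 KO. Closest to Egr1 were Npas2 (0.33), a clock gene, Spon2 (0.50), the non-coding RNA gene Rmrp (0.54), Aldh1l1 (0.55) and Plk4 (0.55). Npas2 read 17.6, 16.4 and 19.5 in WT against 136, 23.0 and 53.0 in Dock3 KO. Of the neighbours named here, Btg2 alone passed the limma test.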

How the data were processed

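Libraries were stranded and paired-end, with ribosomal RNA removed, per the labels' protocols. The authors deposited 1 table of normalized counts per gene, treated as a signal because its values are not whole numbers. The submitters' processing notes name Trim Galore 0.4.5, Salmon 0.12.0, DESeq2 1.22.1, R 3.5.3 and GRCm38, with no role or order. Annotation, strand use and filters are not given in the sources used here. Of the low values, 18.9% to 28.7% per sample were whole multiples (within 0.02) of the commonest one, so whole reads were not recovered, the exact depth is unknown, and no count test or counting interval is given.

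All 54393 identifiers matched GENCODE M21 (GRCm38), whose coordinates are printed. 4 listed symbols were matched through RefSeq synonyms. Values were taken as log2(normalized count + 1), genes with a mean of at least 10 were kept, and the 6 samples were fitted by genotype with limma 3.58.1 in R 4.3.3 (variance trend, no covariates), with Benjamini-Hochberg adjustment over all genes, a threshold of 0.05 and 95% intervals. The procedure was tested on simulated data. Copies were sought with blastn 2.17.0 (at least 95% identity over 50% of the shorter transcript and 100 bases).

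The members and lists were chosen with earlier results of these data known. Named by rule are all members, Dock3, the called genes of 5 pathway lists or otherwise the 2 with the smallest p in each direction, Gm42418 and Lars2, and the 5 genes closest to Fos and to Egr1. Some genes that this rule names are not reported here. Ccn2, Klf10, Klf2, Gadd45b, the cell type markers and genes that overlap a member were named after their values were seen. Alternatives were other pseudocounts, filters, scalings and prior variances, Gm42418 as a covariate, the replicate block and samples left out. They were run for Col1a1 and Col3a1 after the data were seen.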

Additional observations from a re-analysis of the deposited data

How the results depend on the processing

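Over 18 alternatives, Nr4a3 stayed between 2.40 and 2.96. It passed in all but the one without Dock3 KO 1 and 2, which left 1 Dock3 KO sample. Fos, Fosb, Egr1, Atf3 and Nr4a1 kept their direction in each alternative run (Fosb was too low for a minimum mean of 50). Of 179 values of the 10 genes, 10 reversed, 7 gained and 1 lost the call. Rescaling to the same total moved the median of all genes to -0.28, or to -0.11 without Gm42418 and Lars2, and the share of called genes that were higher from 43.0% to 23.2% and 31.9%. The cause of the changes below was not tested.

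Of the 10 genes, 2 passed with Gm42418 as a covariate, with no filter and without Dock3 KO 1 (Atf3 and Nr4a3 each time). Leaving out Dock3 KO 1 and 2 together kept 1 Dock3 KO sample, so calls among the 10 genes are not counted for that fit. Its count over all genes, given below, rests on that 1 sample against WT. Leaving out 1 sample gave 1 to 3 calls among the 10 genes, 3 being reached without Dock3 KO 3 (Junb, Nr4a1 and Nr4a3). For all genes the count of 165 became 57 with the covariate, 104 without the variance trend, 56 without Dock3 KO 1 and 2, and 100 to 159 with 1 sample left out. The 3 other immediate early genes became 0 by limma with the covariate (9 at an unadjusted p under 0.05) and without the trend (12). They became 5 with no filter (Ccn2 and Klf10 added), 1 on rescaling to the same total (Nr4a2), and 0 to 3 with 1 sample left out. Without Dock3 KO 1 the 3 were Btg2, Sik1 and Gadd45b, the last lower. Dock3 lost its call with the covariate (-5.94, limma adjusted p = 0.0836), without the trend (-4.76, limma adjusted p = 0.123) and without Dock3 KO 2 or any 1 WT sample, with values from -5.81 to -4.21 over the samples left out.

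The replicate numbers 1 and 3 occur in both groups. Over 16031 genes, same-numbered samples did not deviate together (correlations of 0.065 and 0.0066), so no pairing was seen. Correlations over all genes would not show a pairing that acts on few of them. With a replicate block, 3 of the 10 genes passed (Atf3, Egr1 and Nr4a3), Egr1 at 2.33 (limma adjusted p = 0.0176), as did 127 of all genes and 2 other immediate early genes (Btg2 and Klf2).

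Reversed differences were, on rescaling to the same total, Jun at -0.0017, Ier2 at -0.026 and Myc at -0.24, and Myc at -0.068 when Gm42418 and Lars2 were left out of the total. With the covariate they were Junb at -0.018, Rxra at 0.053, Max at 0.25 and Bag3 at 0.34, with the replicate block Myc at -0.087 and Max at 0.14, and without Dock3 KO 1 and 2 Rxra at 0.027, Max at 0.19 and Bag3 at 0.31. With 1 sample left out, Ier2 ran from -0.19 to 0.61, Myc from -0.13 to 0.31 and Bag3 from -0.16 to 0.18.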
